A study of Homo sapiens with 48 samples.

Results

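The ribosome biogenesis factors described here are 50 protein-coding genes, of 58721 genes in each of the authors' tables. They were taken from a list of gene symbols, with no threshold on a measured value. The cells were DLD-1, a line from a human colorectal tumour, and in every group they carried TIR1, the plant receptor that directs degron-tagged proteins to the proteasome when auxin is given. The study compared CNOT1-AID cells, with the auxin-inducible degron at the CNOT1 locus, CNOT4-AID cells, with it at the CNOT4 locus, and untagged parental cells. CNOT1 is the scaffold of CCR4-NOT, the complex that shortens poly(A) tails, while CNOT4 joins ubiquitin to other proteins and is known to contact that complex. In the steady-state set each line had 1 mM auxin or was left untreated, for 8 h and 24 h. In the triptolide set each line had 1 mM auxin for 2 h and then 1 µM triptolide, a drug that stops new transcripts from being started, for 0, 3, 6 and 12 h. Each set held 12 groups of 2 libraries. Whether a tagged line is a single clone is not given in the sources used here.

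A ribosome is built in the nucleolus from one long ribosomal RNA precursor, which is folded, modified, cut and joined to ribosomal proteins before both subunits leave for the cytoplasm. Small nucleolar ribonucleoproteins (snoRNPs) modify the precursor: those of the box C/D class carry the methyltransferase FBL with NOP56 and NOP58, and those of the box H/ACA class carry the pseudouridine synthase DKC1 with NOP10. The small subunit (SSU) processome, built largely of UTP proteins, folds and cuts the part that becomes the 40S subunit. Separate factors finish and export the 40S subunit, and others assemble the 60S subunit. Growing and cancer cells make many ribosomes, and MYC, which binds CACGTG (the E-box) with its partner MAX, is known to activate many of these genes.

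The promoters of the 50 genes were read first, in windows from 250 bases before to 50 bases after each annotated start, from RefSeq on GRCh38.p14. Of the 50 genes 42 had a window, and 16 of these (38.1%) held CACGTG, which reads the same on both strands and was searched without any other motif. The same letters stood in 10.4% of the windows of 9701 tested genes and in 7.26% of all 35116 windows. In 12 of the 16 members a CACGTG began within 20 bases of the start. How often this held in the windows of other genes with the motif was not counted. A match is a run of letters, and binding was not measured. The windows of 30 bases below, with the motif in capitals, are shown for 4 genes with a motif near the top of the CNOT1-AID responses to auxin (LTV1, RRP9, BYSL, WDR43) and the 3 at the bottom (FBL, MRTO4, NOP10), to set the motif beside the response. NOP2, which rose more than these, also holds CACGTG, at the edge of its window.
LTV1, chr6:143843354-143843383, plus strand: gtcctggggctgCACGTGtggtgaggccta
RRP9, chr3:51941892-51941921, minus strand: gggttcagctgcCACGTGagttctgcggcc
BYSL, chr6:41921515-41921544, plus strand: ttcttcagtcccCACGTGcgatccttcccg
WDR43, chr2:28894658-28894687, plus strand: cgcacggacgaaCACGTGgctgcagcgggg
FBL, chr19:39846356-39846385, minus strand: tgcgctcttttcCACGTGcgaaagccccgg
MRTO4, chr1:19251807-19251836, plus strand: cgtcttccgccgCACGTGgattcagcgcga
NOP10, chr15:34343130-34343159, minus strand: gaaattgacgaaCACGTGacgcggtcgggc

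The 150 bases before the start are shown for RIOK2, which rose most of the members at 24 h and whose window holds no CACGTG.
RIOK2, chr5:97183248-97183397, minus strand: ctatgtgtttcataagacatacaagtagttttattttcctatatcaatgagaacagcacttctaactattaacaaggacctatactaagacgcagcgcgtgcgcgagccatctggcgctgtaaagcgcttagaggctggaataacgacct
Members with the motif spanned nearly the whole range of responses. Their median log2 change after 24 h of auxin in CNOT1-AID cells was 0.64 (16 genes, -0.31 to 2.05), against 1.11 (26 genes, 0.21 to 2.40) in members whose window lacked it. These medians are a description, with no test.

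Steady-state levels are given as TPM, a share of all transcripts that is corrected for length, scaled between libraries with TMM (trimmed mean of M values), so that levels may be compared between genes. All 50 members passed the filter on low values. Their mean over 24 libraries, in TPM as deposited, ran from 11.9 for UTP23, a factor of early 40S assembly, to 1124 for NPM1 (nucleophosmin), an abundant histone and ribosome chaperone. NCL (nucleolin) followed at 456 TPM and NOP56 at 261 TPM. The depth behind the steady-state TPM is unknown. The triptolide libraries held 18216427 to 26723618 counts each. ERCC spike-in RNA took 0.847% to 1.67% of TPM and 0.941% to 3.92% of counts, and protein-coding genes took 30.6% to 54.7% of TPM. Among pairs in the triptolide set, both parental 0 h libraries were the least alike (r = 0.960 over genes, chi-square per degree of freedom 85.5, against 3.02 to 20.1 in the other pairs). Of 13 colon epithelium markers 10 had a mean of at least 1 TPM, summing to 2800 to 5194 TPM per library with the rest. All 6 fibroblast and all 4 endothelium markers had a mean below 1 TPM, and of 5 blood markers only CD14 reached it (1.00 TPM). The mRNAs of CNOT1 and CNOT4 are given next in TPM as deposited, without TMM scaling. The scaling factors ran from 0.657 to 1.28 over the libraries, so overlaps between groups may differ on the scaled values. The mRNA of CNOT1 itself stood at 44.95 and 48.3 TPM with auxin, against 49.0 and 60.9 TPM untreated, in CNOT1-AID cells at 8 h. At 24 h it stood at 45.9 and 39.9 TPM, against 68.4 and 59.0 TPM. In untreated parental cells the mRNA of CNOT1 was higher than in untreated CNOT1-AID cells, at 88.3 and 83.8 TPM at 8 h and 95.2 and 91.4 TPM at 24 h. That of CNOT4 stood at 8.66 and 10.78 TPM with auxin, against 9.76 and 9.02 TPM untreated, in CNOT4-AID cells at 8 h, and at 12.4 and 12.6 TPM, against 10.2 and 9.96 TPM, at 24 h. In CNOT1-AID cells CNOT4 mRNA stood at 32.8 and 32.5 TPM with auxin, against 6.90 and 9.51 TPM untreated, at 8 h. The degron acts on the proteins, which were not measured, so these values do not check the labels.

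Auxin raised most of these mRNAs in CNOT1-AID cells within 8 h, and they were still high at 24 h. At 8 h 47 of the 50 members were higher with auxin than untreated and 2 were lower (limma, adjusted p below 0.05), where 33.1% of 14921 tested genes were higher and 29.8% lower. The median member changed by 0.74 on the log2 scale and the median tested gene by 0. At 24 h 45 members were higher and 2 lower, where 36.7% of tested genes were higher and 34.8% lower, and the median member stood at 0.96. A called rise of at least 2-fold was reached by 15 members at 8 h and by 23 at 24 h. The share of all tested genes at this cut is not given here, so these 2 counts only describe the members. Replicate 1 alone gave a median of 0.77 at 8 h and 0.92 at 24 h, and replicate 2 alone gave 0.70 and 0.99. These are shares of the RNA sequenced: in bulk samples, fewer cells and less RNA per cell cannot be told apart. With libraries scaled to the ERCC spike-ins, the median of all genes shifted by 0.41 at 8 h and 0.32 at 24 h in CNOT1-AID cells. With this scaling 50 and 48 members were higher and 0 lower at either time. The share of all tested genes called with ERCC scaling is not given here, so these counts only describe the members. Markers of cell types moved in the same comparison. Of 12 colon epithelium markers tested, 2 were higher and 7 lower at 8 h and 4 higher and 7 lower at 24 h, and the list summed to 2808 and 2800 TPM with auxin, against 4214 and 4073 TPM untreated, at 24 h. KRT8 was 2.85-fold, KRT20 2.77-fold and CDH17 3.51-fold lower, and CLDN4 2.92-fold higher. The 6 fibroblast markers summed to 4.80 and 3.08 TPM with auxin, against 0.31 and 0.17 TPM untreated, with COL1A1 called higher and 2 markers at 0 in both auxin libraries. The 5 blood markers summed to 3.81 and 3.18 TPM, against 0.42 and 0.61 TPM, with CD14 called higher and 3 at 0, and the 4 endothelium markers to 0.28 and 0.31 TPM, against 0.35 and 0.31 TPM, with 2 at 0. Their part in the members' rise was not tested.

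**Figure D1:**
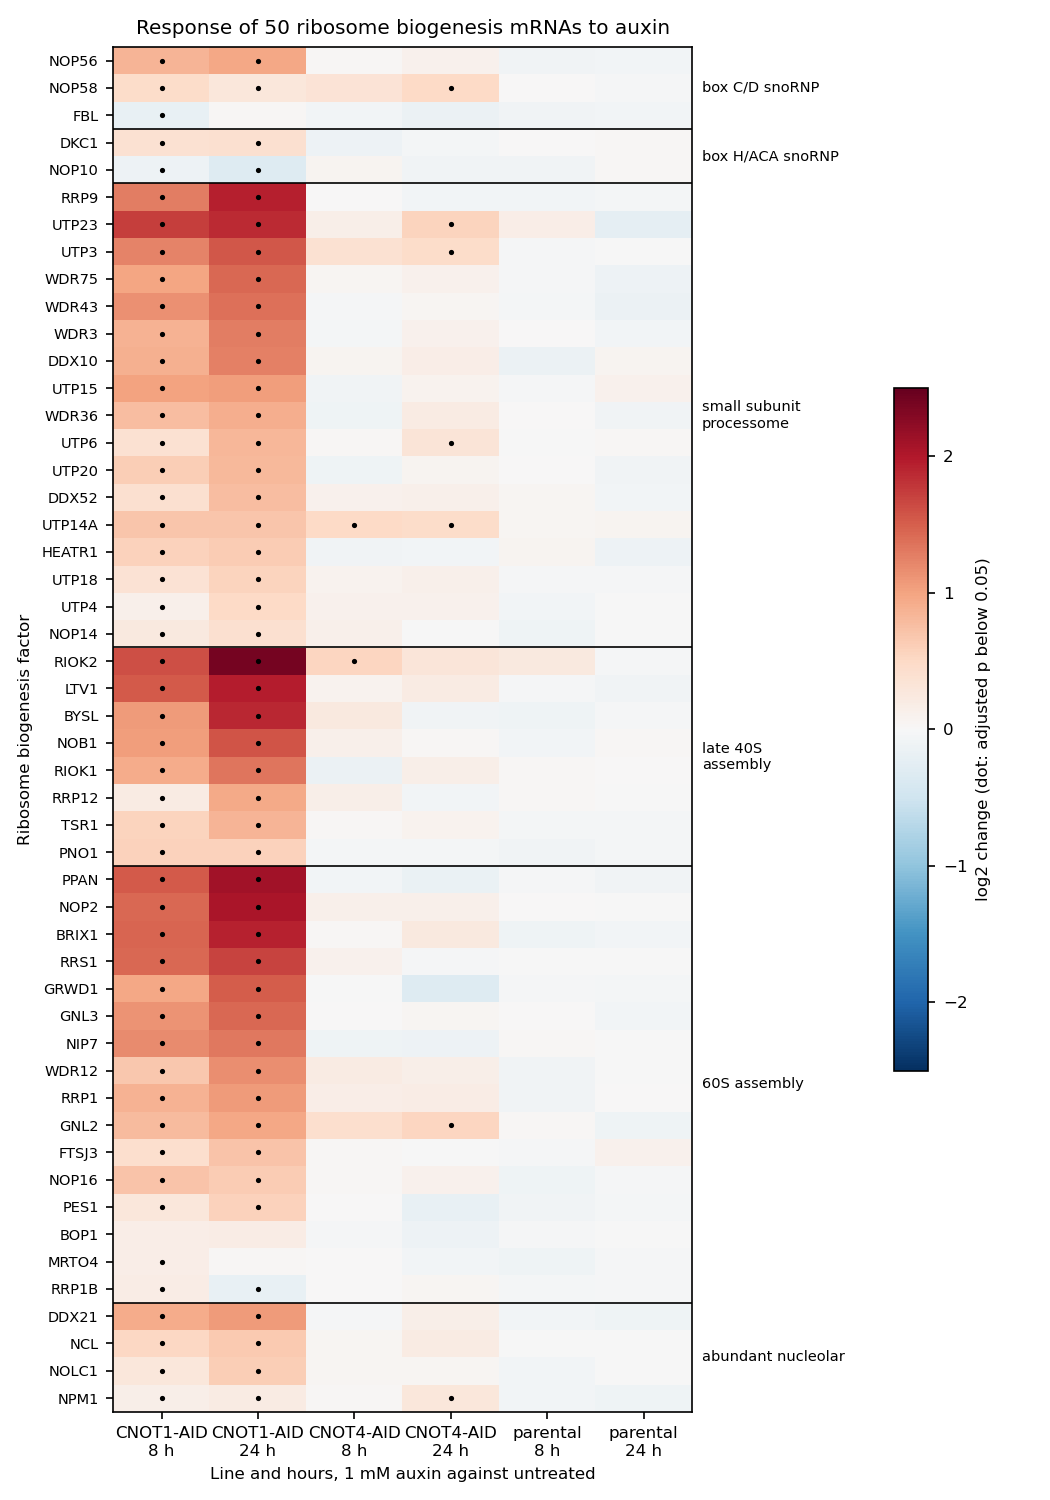
Colours give the log2 change with auxin against untreated for each of the 50 members (rows, grouped by role and ordered by the 24 h change in CNOT1-AID cells) in 6 comparisons (columns), and dots mark an adjusted p below 0.05. The CNOT1-AID columns hold 49 and 47 dots, the CNOT4-AID columns 2 and 7, and the parental columns 0.

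Among the snoRNP proteins the response was split. NOP56, a core protein of box C/D snoRNPs, stood at 397 and 405 TPM with auxin, against 232 and 215 TPM untreated, at 8 h, and at 369 and 392 TPM, against 195.2 and 194.5 TPM untreated, at 24 h. Both auxin libraries lay above both untreated libraries at each time, a 1.79-fold and 1.95-fold rise (log2 0.84 ± 0.052 SE and 0.96 ± 0.052, limma adjusted p = 5.73e-10 and 5.02e-11). NOP58, which pairs with NOP56, rose 1.37-fold and 1.22-fold (adjusted p = 0.000155 and 0.00504), and the 24 h call was lost with protein-coding genes only (adjusted p = 0.0555) and without untreated replicate 2 (adjusted p = 0.0561). FBL, the methyltransferase of the same particle, was not raised. Its TPM was 168 and 179 with auxin, against 209 and 185 untreated, at 8 h, a fall of 0.18 on the log2 scale (adjusted p = 0.0182), and 178 and 186, against 178 and 177, at 24 h (log2 0.04, adjusted p = 0.599). In the box H/ACA particle, DKC1 rose 1.30-fold and 1.32-fold (adjusted p = 2.43e-05 and 7.73e-06). NOP10, the small protein that binds DKC1, stood at 97.8 and 96.5 TPM with auxin at 24 h, against 120 and 122 TPM untreated, and fell by 0.31 (adjusted p = 2.6e-05), after a fall of 0.12 at 8 h (adjusted p = 0.0461). The direction of FBL and NOP10 at 8 h depended on the scaling: with ERCC scaling FBL stood at 0.29 and NOP10 at 0.35, and NOP10 at 24 h stood at 0.06. Both 8 h falls also missed the threshold with no filter, in a fit of the libraries compared alone, and without untreated or auxin replicate 1 (adjusted p = 0.0894 to 0.246 for FBL and 0.175 to 0.464 for NOP10).

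**Figure D2:**
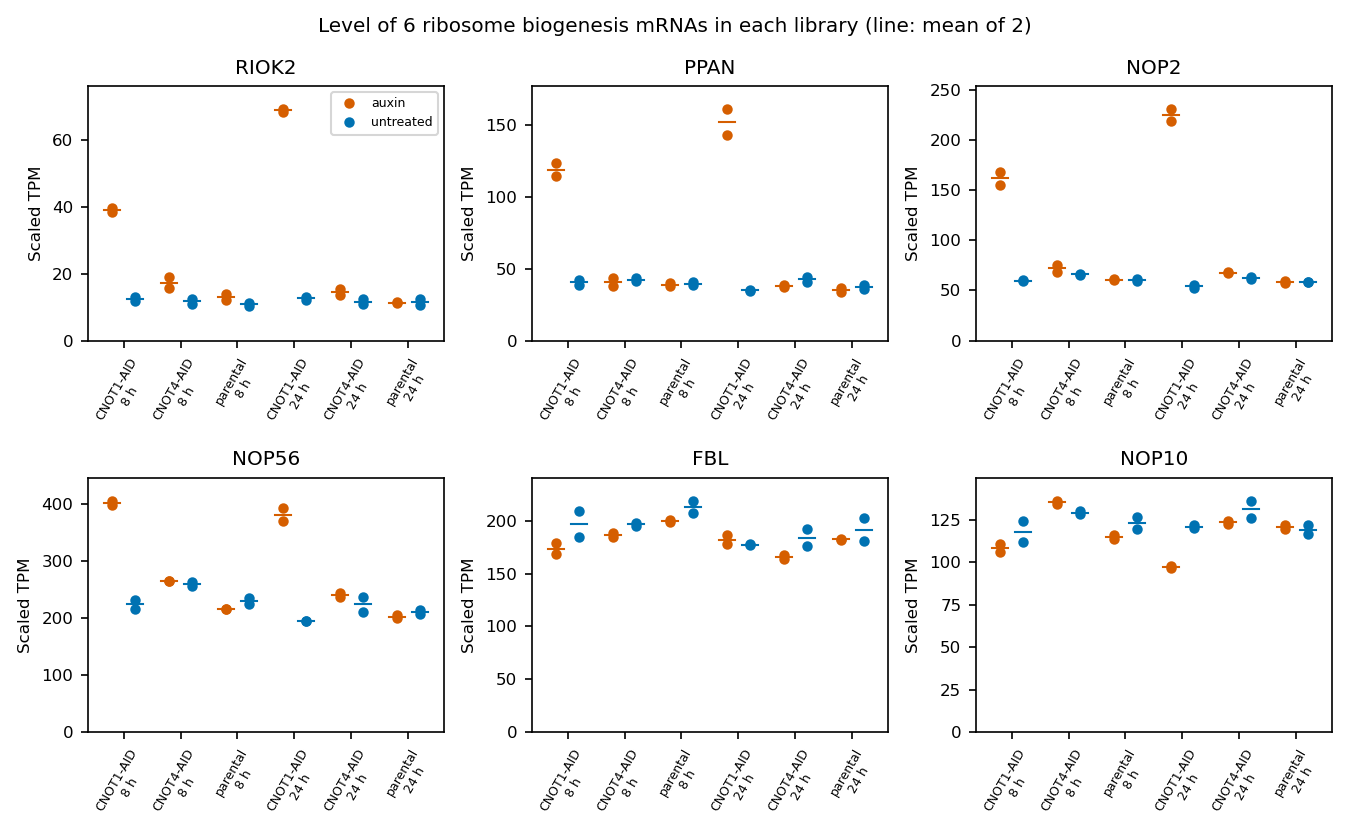
Points are the TMM-scaled TPM of each library (vertical axis, from 0) for 6 members, with auxin (orange) left of untreated (blue) in each line and time, and lines are means of 2 libraries. RIOK2, PPAN, NOP2 and NOP56 are high in CNOT1-AID cells with auxin (RIOK2 at 69.1 and 68.3 TPM at 24 h), while FBL and NOP10 are not.

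All 17 members of the SSU processome rose at both times, with median log2 changes of 0.78 at 8 h and 0.92 at 24 h. RRP9, which binds the U3 snoRNA of the processome, reached 108 and 116 TPM with auxin at 24 h, against 28.0 and 29.6 TPM untreated, a 3.84-fold rise (log2 1.94 ± 0.078, adjusted p = 1.12e-12) after a 2.42-fold one at 8 h. UTP23, the least abundant member, stood at 31.0 and 28.5 TPM, against 8.27 and 7.31 TPM, at 24 h (3.65-fold, adjusted p = 5.14e-12) and had risen 3.32-fold at 8 h. UTP3, which acts in the same particle, rose 2.38-fold and 2.95-fold, and the WD-repeat proteins WDR43 and WDR75, of the subcomplex that binds first to the nascent precursor, rose 2.20-fold and 2.59-fold, and 1.98-fold and 2.71-fold. In these genes no auxin library overlapped an untreated one. WDR3, WDR36 and UTP15, further scaffold proteins of the particle, rose 2.44-fold, 1.89-fold and 2.07-fold by 24 h, the helicases DDX10 and DDX52 rose 2.39-fold and 1.70-fold, and the large proteins HEATR1 and UTP20 rose 1.56-fold and 1.76-fold. UTP6, UTP14A and UTP18 rose 1.78-fold, 1.62-fold and 1.48-fold at 24 h. The smallest rises at 24 h were those of UTP4 (1.42-fold) and NOP14 (1.33-fold), both parts of the processome.

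All 8 factors of late 40S assembly and export rose as well, and RIOK2 rose most of the 50 members at 24 h. RIOK2 (chromosome 5, 97160867 to 97183260, minus strand, GRCh38 with GENCODE 29, as for the positions that follow) is a kinase that leaves the pre-40S particle at its last cytoplasmic steps. It stood at 39.5 and 38.5 TPM with auxin, against 11.7 and 13.1 TPM untreated, at 8 h (3.07-fold, log2 1.62 ± 0.103, adjusted p = 8e-10). At 24 h it stood at 69.1 and 68.3 TPM, against 13.0 and 12.2 TPM (5.28-fold, log2 2.40 ± 0.103, adjusted p = 2.69e-12). LTV1 (chromosome 6, 143843344 to 143863812, plus strand), a pre-40S factor that is released before the last steps, rose 2.88-fold and 3.89-fold. BYSL (bystin), needed for 40S maturation, rose 2.09-fold and 3.68-fold, reaching 101 and 103 TPM against 26.3 and 28.4 TPM. NOB1, the nuclease that makes the final cut of 18S ribosomal RNA, rose 2.08-fold and 2.99-fold. RIOK1, the kinase related to RIOK2, rose 1.90-fold and 2.53-fold, TSR1, a GTPase-like factor of the pre-40S, rose 1.46-fold and 1.81-fold, and PNO1, the partner of NOB1, rose 1.49-fold and 1.5-fold. RRP12, an export factor, lagged at 1.15-fold at 8 h (adjusted p = 0.0159) and stood at 1.94-fold at 24 h.

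The 16 factors of 60S assembly held strong rises and members that did not pass. At 8 h 15 of them were higher, and at 24 h 13 were higher and 1 was lower. PPAN (chromosome 19, 10106289 to 10111634, plus strand), a nucleolar factor of 60S assembly, stood at 143 and 161 TPM with auxin at 24 h, against 35.5 and 34.4 TPM untreated (4.30-fold, log2 2.10 ± 0.077, adjusted p = 3.84e-13), after 2.90-fold at 8 h. The same strand holds the PPAN-P2RY11 readthrough gene, so its values may include reads of that transcript. NOP2 (chromosome 12, 6556863 to 6568691, minus strand), a methyltransferase of 28S ribosomal RNA, reached 219 and 231 TPM, against 55.7 and 52.2 TPM, at 24 h (4.13-fold, adjusted p = 5.71e-15), after 2.70-fold at 8 h. BRIX1 rose 2.75-fold and 3.77-fold, and RRS1, which helps bring the 5S particle into the pre-60S, rose 2.69-fold and 3.22-fold. The nucleolar GTPases GNL3 and GNL2 rose 2.17-fold and 1.73-fold at 8 h and 2.69-fold and 1.94-fold at 24 h. GRWD1 rose 1.94-fold and 2.86-fold, NIP7 2.26-fold and 2.48-fold, NOP16 1.63-fold and 1.54-fold, and the methyltransferase FTSJ3 1.34-fold and 1.63-fold. The complex of PES1, BOP1 and WDR12, which acts in 60S maturation, was called in part. WDR12 rose 1.60-fold and 2.22-fold and PES1 1.22-fold and 1.48-fold, while BOP1, at 56.9 and 64.5 TPM with auxin against 50.3 and 55.7 TPM at 24 h, passed at neither time (log2 0.17 and 0.19, adjusted p = 0.131 and 0.0836). Differences between these 3 genes were not tested.

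RRP1 and RRP1B are related proteins of 60S assembly. RRP1 was 1.82-fold higher at 8 h and 2.10-fold higher at 24 h. RRP1B stood at 41.9 and 42.3 TPM with auxin, against 37.1 and 36.4 TPM untreated, at 8 h (log2 0.19, adjusted p = 0.00028, or 0.0643 in a fit of the libraries compared alone), but at 30.4 and 29.6 TPM, against 34.3 and 34.4 TPM, at 24 h (log2 -0.19, adjusted p = 0.000274). Its auxin libraries thus lay above the untreated ones at 8 h and below them at 24 h. The 24 h fall was not seen with ERCC scaling (0.18) or without scaling (0.07). MRTO4, a factor that holds the place of a ribosomal protein in the pre-60S, passed at 8 h (1.13-fold) and not at 24 h (log2 0.03, adjusted p = 0.668).

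The 4 abundant nucleolar proteins were called higher at both times. DDX21, an RNA helicase, rose 1.90-fold and 2.10-fold, reaching 158 and 148 TPM against 74.9 and 70.1 TPM at 24 h. NCL rose 1.43-fold and 1.56-fold, from the second highest level among the members: 565 and 612 TPM with auxin at 24 h, against 385 and 367 TPM untreated. NOLC1, a snoRNP chaperone, rose 1.22-fold and 1.53-fold. NPM1 rose 1.11-fold and 1.15-fold (adjusted p = 0.0285 and 0.00355), at 1160 and 1128 TPM against 985 and 996 TPM at 24 h, and its many pseudogenes may take part of its reads. The 8 h call of NPM1 was lost with a filter at 5 TPM, with protein-coding genes only, in a fit of the libraries compared alone, and without untreated or auxin replicate 1 (adjusted p = 0.183 to 0.306), and its 24 h call was lost with that filter (adjusted p = 0.0637) and with protein-coding genes only (adjusted p = 0.121). Across the 50 members, more abundant mRNAs tended to rise less at 8 h (Pearson r = -0.47 between the change and log2 of the untreated level, a description with no p, since both use the same untreated libraries).

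The change over time was itself tested. In CNOT1-AID cells the response at 24 h exceeded that at 8 h in 21 members and fell short of it in 2, NOP10 and RRP1B, where 17.4% and 18.9% of tested genes did so. BYSL (difference 0.82 ± 0.090, adjusted p = 5.25e-06), RIOK2 (0.79 ± 0.146), RRP12 (0.75 ± 0.096), RRP9 (0.67 ± 0.110) and NOP2 (0.62 ± 0.072) gained most. With ERCC scaling 8 members gained, and without scaling 9 did.

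The response was then set against that of the other lines. In parental cells auxin changed 0 of the 50 members at 8 h and 0 at 24 h with limma (1 and 2 at an unadjusted p below 0.05), where 0.0134% of tested genes were higher and 0.0067% lower at 8 h, and 0% at 24 h in either direction. The response of CNOT1-AID cells exceeded that of parental cells in 46 members at 8 h, and in 45 at 24 h with 2 (NOP10 and RRP1B) below it. Of tested genes, 27% and 23.2% differed upward and downward at 8 h, and 32.3% and 29.6% at 24 h. Against CNOT4-AID cells, the CNOT1-AID response was higher in 39 members and lower in 1 at 8 h, and higher in 42 and lower in 2 at 24 h (tested genes: 27.6% higher and 24% lower, then 32% and 30.1%). PPAN differed most from CNOT4-AID cells at 24 h (2.26 ± 0.109). These 2 sets of differences share the CNOT1-AID libraries.

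In CNOT4-AID cells few members passed. At 8 h auxin raised RIOK2, at 1.44-fold (log2 0.53 ± 0.103, adjusted p = 0.0426), and UTP14A, a processome factor, at 1.41-fold (0.50 ± 0.088, adjusted p = 0.0301), where 0.241% of tested genes were higher and 0.0469% lower. UTP14A stood at 17.4 and 22.6 TPM with auxin, against 13.9 TPM in each untreated library, and RIOK2 at 15.6 and 18.9 TPM, against 11.1 and 12.5 TPM. In TPM as deposited, UTP14A stood at 11.44 and 18.39 with auxin, against 11.34 and 11.22 untreated. RIOK2 stood at 10.26 and 15.35, against 9.02 and 10.1. With ERCC scaling or without scaling 0 members were higher at 8 h. At 24 h 7 members were higher and 0 lower, where 2.09% and 2.42% of tested genes were. They were UTP23 (1.48-fold), the GTPase GNL2 (1.44-fold), NOP58 (1.41-fold), UTP3 (1.38-fold), UTP14A (1.37-fold), UTP6 (1.24-fold) and NPM1 (1.22-fold). Those that missed the threshold lay between -0.32 and 0.31. UTP23 stood at 9.81 and 9.17 TPM with auxin, against 5.92 and 6.59 TPM untreated, at 24 h. Neither count held without single CNOT4-AID libraries: at 8 h it came to 0 without untreated replicate 1, untreated replicate 2 or auxin replicate 2. At 24 h it came to 0 without untreated replicate 1 or auxin replicate 1, and to 1 without auxin replicate 2. Beyond the parental response, only UTP23 at 24 h passed (0.78 ± 0.120, adjusted p = 0.0259), where 0.0402% of tested genes were higher and 0.0268% lower, and 0 members passed at 8 h with limma (9 at an unadjusted p below 0.05), where 0.0067% of tested genes did so in each direction. The call of UTP23 was lost without parental untreated replicate 1, CNOT4-AID untreated replicate 1 or any 1 of the 4 auxin libraries of these lines at 24 h. Between 8 h and 24 h the CNOT4-AID response differed in 0 members with limma (10 at an unadjusted p below 0.05), where 0.0067% of tested genes gained and 0.0134% lost.

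The lines also differed before auxin. Averaged over both times, 14 members were lower and 1 (UTP4) was higher in untreated CNOT1-AID cells than in untreated parental cells, where 10.6% and 10.1% of tested genes were. All 14 differences were small: UTP18 (log2 -0.31 ± 0.051, adjusted p = 0.000375), NPM1 (-0.27) and HEATR1 (-0.26) led. The count fell to 7 to 9 without parental replicate 1 or 2 at 8 h, parental replicate 1 at 24 h or CNOT1-AID replicate 2 at 24 h, and to 2 with ERCC scaling. In untreated CNOT4-AID cells 7 members were higher than in parental cells and 0 lower (tested genes: 10.5% and 9.74%), led by RRS1 (0.22 ± 0.054, adjusted p = 0.00826). It came to 2 to 4 without parental replicate 1 at either time, CNOT4-AID replicate 2 at 8 h or CNOT4-AID replicate 1 at 24 h. Without scaling the CNOT4-AID line had 0 members higher and 34 lower, so that the direction there rested on the scaling. Untreated cells at 24 h held less of 14 members than at 8 h and more of 0 (tested genes: 4.66% lower and 5.61% higher), with RIOK1, a kinase of 40S maturation, lowest (-0.34 ± 0.048, adjusted p = 0.000363). Without CNOT4-AID replicate 2 at 8 h the count was 9, with ERCC scaling 44, and without scaling 1.

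How fast the mRNAs were lost was read after triptolide. Counts were scaled to the ERCC spike-ins, and slopes are in log2 per hour. In CNOT1-AID cells the median member was at 102% and 80.4% of its 0 h level after 12 h in replicates 1 and 2. In CNOT4-AID cells it was at 30.4% and 16.9%, and in parental cells at 49.6% and 40.7%. The median tested gene stood at 94.6% and 76.5% in CNOT1-AID cells, 37.7% and 21.4% in CNOT4-AID cells, and 62.4% and 51.5% in parental cells. The members' median thus lay above that of all genes in CNOT1-AID cells and below it in CNOT4-AID and parental cells.

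**Figure D3:**
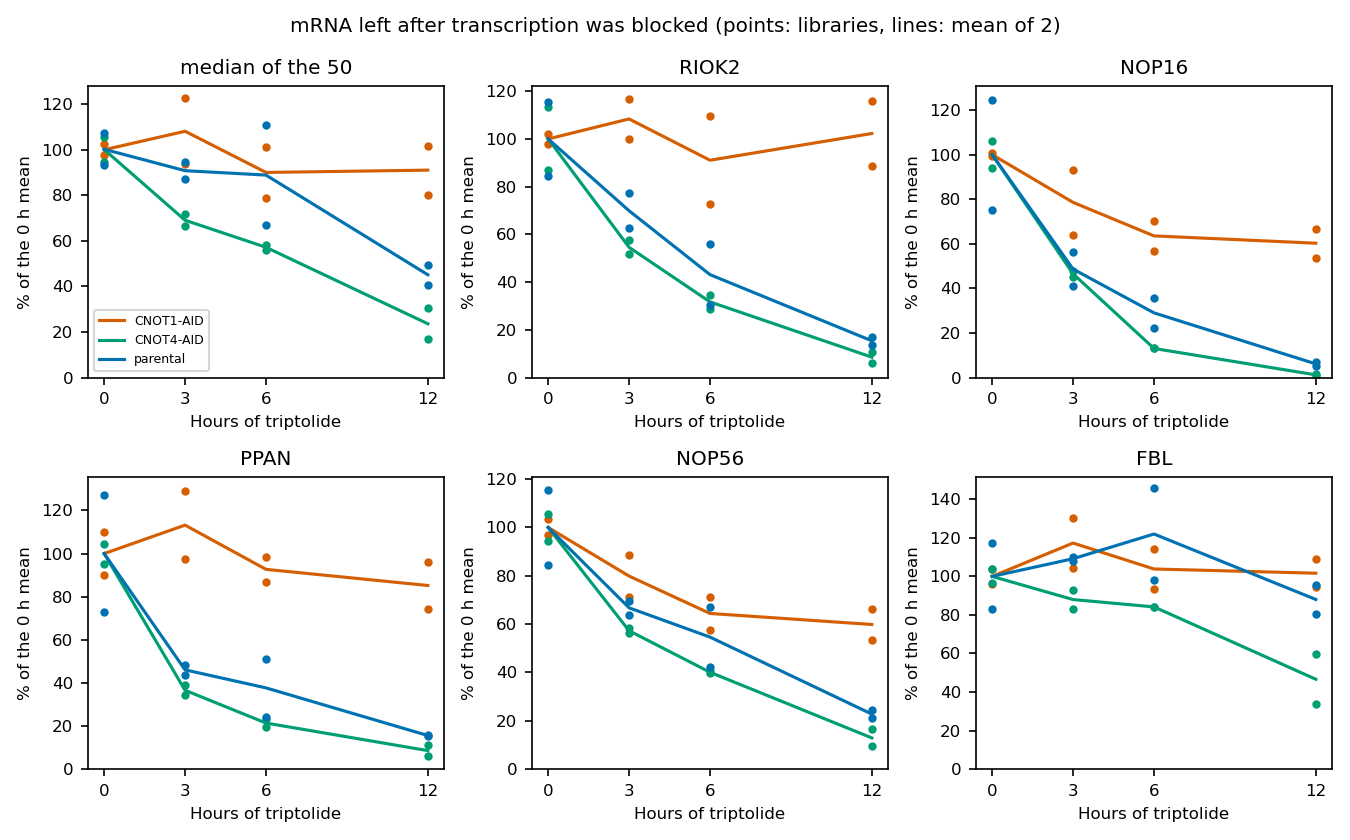
Points are single libraries as a percentage of the 0 h mean of their line (vertical axis, from 0) against hours of triptolide, for the median of the 50 members and for 5 members, and lines join means of 2. In RIOK2, NOP16 and PPAN the CNOT1-AID line stays far above the others at 12 h, while the lines of FBL lie closer together.

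Fitted half-lives show how the members differ among themselves in parental cells. NOP16 (3.03 h), RRS1 (3.16 h), NOP2 (3.34 h), WDR43 (3.42 h), GNL3 (3.49 h) and BRIX1 (3.68 h) were lost fastest, and RIOK2 (4.39 h) and PPAN (4.69 h) soon after, whereas FBL (60.8 h) and NCL (94.4 h) had slopes close to 0 and the slope of NPM1 was not below 0. Half-lives beyond 12 h are extrapolated. The median was 5.90 h in CNOT4-AID cells over all 50 members and 10.4 h in parental cells over the 49 with a slope below 0. In CNOT1-AID cells 48 slopes were below 0, but 0 members had a decline that passed (edgeR, lowest adjusted p = 0.0607, NOP56), so no half-life is given for that line. A decline passed in 50 members in CNOT4-AID and 38 in parental cells, with no share of tested genes given. Of all 16806 tested genes, 16546 had a slope below 0 in CNOT4-AID and 14716 in parental cells, called or not. The counts of declines thus only describe the members. The lines had the same order over all 16806 tested genes. Their median slopes were -0.0265 (CNOT1-AID), -0.148 (CNOT4-AID) and -0.0727 (parental) log2 per hour, beside -0.0173, -0.170 and -0.0957 for the members. Parental slopes rest on the 0 h pair that agreed least, and the parental libraries at 6 h also lay apart, with the median member at 66.9% and 111%.

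In CNOT1-AID cells 24 of the 50 members were lost more slowly than in parental cells and 0 faster (edgeR quasi-likelihood, adjusted p below 0.05), where 18.8% of 16806 tested genes were slower and 0.94% faster. They were 10 of 16 factors of 60S assembly, 8 of 17 of the SSU processome, 5 of 8 of late 40S assembly and NOP56 of the snoRNPs. RRS1 differed most (0.31 ± 0.035 log2 per hour, adjusted p = 1.34e-09). Its mRNA stood at 118% and 81.1% of the 0 h mean at 12 h in CNOT1-AID cells, against 7.2% and 6.8% in parental cells. WDR43 (0.28), BRIX1 (0.28), NOP2 (0.28), NOP16 (0.27), GNL3 (0.27), UTP23 (0.23), RIOK2 (0.23), BYSL (0.21) and LTV1 (0.21) followed. RIOK2 stood at 116% and 88.5%, against 17.2% and 13.6% in parental cells, so that the lines did not overlap at 12 h. None of the 4 abundant nucleolar proteins and neither box H/ACA protein passed, with slope differences of -0.01 to 0.04. With TMM in place of ERCC scaling 27 members were slower and 4 (NOP58, NCL, NOLC1 and NPM1) faster. Without the 12 h libraries 6 were slower.

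Against CNOT4-AID cells, 47 members were lost more slowly in CNOT1-AID cells and 0 faster, where 51.5% of tested genes were slower and 0.202% faster. With TMM scaling 28 were slower, and the differences of FBL, NCL, NOLC1, DDX21 and NOP10 turned negative (-0.028 to -0.0164 log2 per hour), and without the 12 h libraries 15 were slower. NOP16 differed most (0.48 ± 0.038 log2 per hour, adjusted p = 3.24e-14), with 66.8% and 53.7% left at 12 h in CNOT1-AID cells, against 1.6% and 0.8% in CNOT4-AID cells. Between CNOT4-AID and parental cells, only NOP16 passed as lost faster (-0.21 ± 0.041, adjusted p = 0.0153) and 0 as lost more slowly (tested genes: 0.845% and 0%). The differences of all 50 members were negative, and the share of tested genes below 0 is not given here. The median slope of all tested genes was also lower in CNOT4-AID (-0.148) than in parental cells (-0.0727). The sign is thus not to be read as particular to the members. The count of members called as lost faster turned on single libraries: without CNOT4-AID replicate 1 at 12 h it was 45, without replicate 2 at 12 h it was 0, without parental replicate 2 at 6 h it was 10, and without parental replicate 1 at 0 h it was 3. In CNOT4-AID replicates 1 and 2 at 12 h, spike-in RNA made up 2.25% and 3.92% of the counts, and its part in the result was not tested.

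The members that rose most at steady state were mostly those lost more slowly. The 24 members with a called slope difference from parental cells had median log2 changes of 1.06 at 8 h and 1.43 at 24 h, and all 24 rose at each time. The other 26 had medians of 0.40 and 0.63, and 23 and 21 of them rose. Over the 50 members, the 8 h change and the slope difference had Pearson r = 0.76 (Spearman rho = 0.75), and the 8 h change and the parental slope r = -0.74. These correlations are across genes, which share libraries and are no independent replicates, and are given with no p. RRP9 and DDX21 rose 3.84-fold and 2.10-fold at 24 h with slope differences that did not pass (0.06, adjusted p = 0.2, and 0.01, adjusted p = 0.922).

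**Figure D4:**
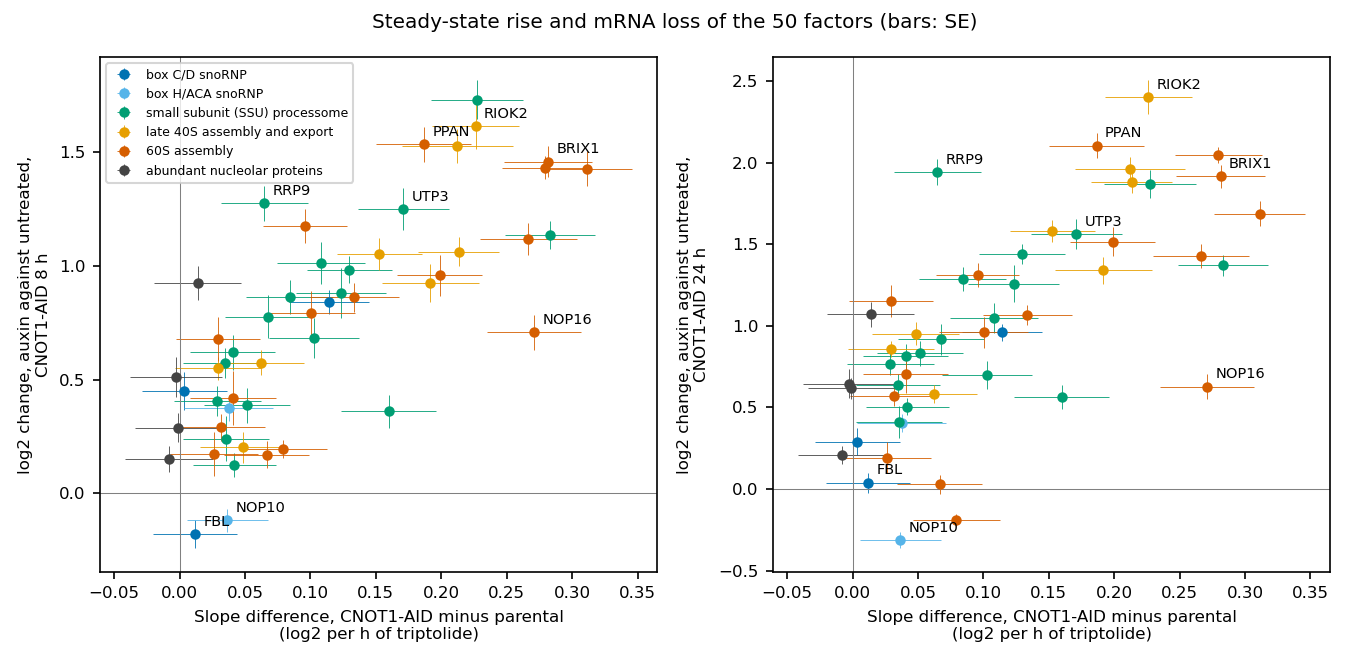
Each point is 1 of the 50 members, coloured by role, with the slope difference between CNOT1-AID and parental cells (horizontal axis, log2 per hour) and the log2 change with auxin in CNOT1-AID cells at 8 h and 24 h (vertical axes), and bars are SE. Points to the right lie higher (r = 0.76 at 8 h and 0.70 at 24 h), and RRP9 stands high with a small slope difference.

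After 2 h of auxin, before triptolide, few members were called different between lines. Both comparisons use the parental 0 h pair, the least alike of the set (r = 0.960). A missed call therefore does not show equal levels. In CNOT1-AID cells 0 members were higher than in parental cells and FBL (log2 -0.26, adjusted p = 0.0475) and NOP10 (-0.46, adjusted p = 0.00685) were lower with TMM scaling, where 9.65% of tested genes were higher and 4.84% lower, and neither passed with ERCC scaling. In CNOT4-AID cells DDX10, a processome helicase (0.68 ± 0.097, adjusted p = 9.57e-05), UTP14A (0.45) and NOLC1 (0.27) were higher and 0 lower, where 7.88% and 4.09% of tested genes were. With ERCC scaling 1 member was higher in CNOT4-AID cells. The number higher in CNOT1-AID cells with ERCC scaling is not given here.

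Other genes of the pathway were counted from 6 further lists, in CNOT1-AID cells with auxin against untreated. Large shares of all tested genes were called in each direction in these comparisons, as given above. Counts from the short lists are to be read beside those shares. Of 50 other 60S factors, 36 were higher and 2 lower at 8 h, and 39 and 5 at 24 h. The largest rises at 24 h were those of ZNF622 (3.22-fold) and MRM3 (3.21-fold). MRM3, though on this list, encodes a methyltransferase of mitochondrial ribosomal RNA and is no factor of nucleolar 60S assembly. Of 40 other processome and 40S factors, 30 and 2 were higher and lower at 8 h, and 32 and 3 at 24 h, with NGDN at 4.79-fold and ESF1 at 4.31-fold. Of 21 genes of RNA polymerase I and its factors, which transcribes the ribosomal RNA precursor, 14 and 3, then 13 and 3 passed, and POLR1C, a subunit shared with RNA polymerase III, rose 3.67-fold and 7.26-fold. Of 13 other snoRNP factors 7 and 3, then 8 and 2 passed, with COIL (coilin) at 2.94-fold and 3.73-fold. The median log2 change of these 4 lists at 24 h was 0.58 for the 60S list, 0.74 for the processome and 40S list, 0.47 for the RNA polymerase I list and 0.27 for the snoRNP list, beside 0.96 for the members. The difference was not tested.

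MYC rose 4.56-fold at 8 h (log2 2.19 ± 0.052, adjusted p = 9.52e-15) and was lost more slowly in CNOT1-AID than in parental cells (0.53 ± 0.132 log2 per hour, adjusted p = 0.00580). In deposited TPM it stood at 367 and 384 with auxin, against 62.6 and 70.9 untreated, at 8 h, and at 214 and 213, against 61.9 and 60.9, at 24 h. Of the 12 genes of MYC and growth regulators 9 were higher and 1 lower at 8 h, and 8 and 2 at 24 h. MXD4, a repressor that competes with MYC for MAX, rose 6.14-fold at 24 h. Of the 5 genes of the 5S particle and p53 surveillance, 1 was higher (CDKN1A, a cell cycle inhibitor, 1.24-fold) and 3 lower at 8 h, including the ribosomal protein gene RPL11 (-0.33), and 1 was lower at 24 h (RPL5, -0.17).

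Features that the list did not use are given as medians, with ranges that overlap widely and no test. In GENCODE 29 the median 3′ untranslated region was 506 bases in the members, with quartiles of 236 and 1685, against 1050 bases in tested protein-coding genes, with quartiles of 410 and 2338. The median coding length was 1686 against 1374 bases, the median number of exons 15 against 9, and the median share of codons ending in G or C 48.2% against 59.1%. Across the members, the 24 h change had correlations near 0 with them (r = 0.05 with the length of the 3′ untranslated region, -0.07 with coding length and -0.03 with G or C at the ends of codons). Of the 50 members 8 (16%) hold snoRNA genes within their bounds, 27 in all, against 222 of 11829 (1.88%) tested protein-coding genes. They are NOP56, NOP58, DKC1, WDR43, TSR1, PPAN, GNL3 and NCL. NOP56, which encodes a box C/D protein, holds SNORD110, SNORA51, SNORD86, SNORD56 and SNORD57. All 8 hosts rose in CNOT1-AID cells at both times, from 1.22-fold (NOP58 at 24 h) to 4.30-fold (PPAN at 24 h). Most members without snoRNA genes rose as well, so the rise was not particular to the hosts. Host genes outside the list were not counted here.

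Over the 12 steady-state group means, 36 members followed the mean profile of the members with r of at least 0.9 (median 0.95), where 10.4% of tested genes did. NOP10 (-0.66), FBL (-0.24), RRP1B (-0.13), NPM1 (0.19) and MRTO4 (0.49) did so least. The genes outside the list with the most alike profiles were EXOSC4 (r = 0.987), a subunit of the RNA exosome, C1orf35 (0.987), the translation initiation factor EIF3A (0.986), the mitochondrial ribosomal protein gene MRPS12 (0.986) and TIMM17A (0.985), of the mitochondrial import machinery. These correlations are over 12 group means that share cell lines and libraries. The mean profile was built from the members themselves, so the 36 members and the 10.4% of tested genes are no like comparison.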

How the data were processed

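RNA-seq libraries were made from ribosomal RNA-depleted total RNA with ERCC spike-ins, per the labels' protocols. Per the submitters' processing notes, the builds were hg38 and GRCh38 and the software was featureCounts, SAMtools, RSEM, STAR 2.5.1b and DESeq2. These notes say neither which tool made which table nor which strand setting was used. The deposited steady-state values are TPM, checked to sum to the same total in each library, and the deposited triptolide values are raw counts. All 58721 identifiers were found in GENCODE 29. Of the members 23 overlap another protein-coding gene, 6 of them on the same strand (UTP4, LTV1, NOP2, RRS1, PPAN and GRWD1), so their reads may be shared.

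TPM were scaled with TMM and tested as log2(TPM + 0.5) with limma 3.58.1 (trend, robust) over 14921 genes with at least 1 TPM in 2 libraries, 1 mean per group and 12 residual degrees of freedom. Fold changes on this scale understate those of low genes. Counts of 16806 genes entered edgeR 4.0.16 (its quasi-likelihood test, robust), with 1 slope per line, 18 residual degrees of freedom and library sizes scaled to 56 of 92 ERCC sequences. Lines at 0 h were compared with TMM scaling. All p-values are two-sided and were adjusted by the Benjamini-Hochberg method, contrast by contrast, and called below 0.05. They reflect only the spread between 2 libraries a group, which may be technical, since separate cultures are not stated. The scripts were tested on simulated data. By the rule, up to 4 members of each role group with the largest called changes and no overlap between libraries were named, with any called against the majority. The remaining members, BOP1, MRTO4, UTP4 and NOP14 among them, were named after their values were seen, so that all 50 are accounted for. Members and lists were chosen with earlier results of these data known. Alternatives were other scalings, pseudocounts, filters, tools (DESeq2 1.42.0 for slopes), time points and each library left out.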

Additional observations from a re-analysis of the deposited data

Results flagged for a closer look

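In 5 tests of a difference between groups, many members passed (limma, Benjamini-Hochberg adjusted p below 0.05). The response to auxin was higher in CNOT1-AID cells than in parental cells for 46 members at 8 h and 45 at 24 h. It was higher in CNOT1-AID than in CNOT4-AID cells for 39 members at 8 h and 42 at 24 h. The CNOT1-AID response was higher at 24 h than at 8 h for 21 members, and for fewer with ERCC scaling or without scaling. Smaller shares of all tested genes differed upward in each of these tests, as given above. RRP1B went the other way over time, with a response at 24 h below that at 8 h (log2 -0.38 ± 0.054, adjusted p = 4.98e-05). Its fall at 24 h against untreated cells was not seen with ERCC scaling or without scaling. Groups of 2 libraries are too small to test for a library that stands apart.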

How the results depend on the processing

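Counts of members higher with auxin in CNOT1-AID cells stayed within 1.5 times of the reported 47 at 8 h and 45 at 24 h in the settings tried (42 to 46 and 44 to 46 with each library left out). Of 86 results on single members, 52 kept direction and side of the threshold in every setting.
With ERCC scaling, 0 members were higher in CNOT4-AID cells with auxin at 8 h, 0 in CNOT4-AID beyond parental cells at 24 h, and 8 gained between 8 h and 24 h in CNOT1-AID cells. In the same setting 2 were lower in untreated CNOT1-AID than parental cells, 44 were lower in untreated cells at 24 h than 8 h, 0 were lower in CNOT1-AID and 1 higher in CNOT4-AID than parental cells at 0 h. Without scaling these counts were 0 at 8 h and 1 at 24 h for CNOT4-AID cells, 0 beyond parental cells, 9 gaining, 3 lower in untreated CNOT1-AID cells, 0 higher in untreated CNOT4-AID cells and 1 lower in untreated cells at 24 h. For CNOT4-AID at 8 h, no filter gave 0 and a fit of its own libraries 0, which gave 1 at 24 h; a filter at 5 TPM gave 4 in untreated CNOT4-AID cells. Slower loss in CNOT1-AID than parental cells was called in 6 members without 12 h. Faster loss in CNOT4-AID than parental cells was called in 0 with TMM scaling, 18 with DESeq2, 6 with no filter and 0 without 12 h. Slower loss in CNOT1-AID than CNOT4-AID cells was called in 28 with TMM scaling and 15 without 12 h.
Directions reversed as follows. At 8 h, FBL stood at 0.29 with ERCC scaling and 0.12 without scaling, and NOP10 at 0.35 and 0.18. At 24 h, NOP10 stood at 0.0647 with ERCC scaling, and RRP1B at 0.18 with it and 0.0683 without scaling. With TMM scaling the slope difference of CNOT1-AID from CNOT4-AID cells was -0.0226 for FBL, -0.0227 for NCL, -0.0237 for NOLC1, -0.028 for DDX21 and -0.0164 for NOP10. Why these values moved was not tested.
With each library left out, counts ran from 0 to 3 and 0 to 8 for CNOT4-AID cells at 8 h and 24 h, 42 to 46 and 44 to 45 for CNOT1-AID beyond parental cells, 0 to 1 and 0 to 2 for CNOT4-AID beyond parental cells, and 34 to 40 and 41 to 43 for CNOT1-AID beyond CNOT4-AID cells. They ran from 17 to 26 for the gain over time, 7 to 17 and 2 to 7 for untreated CNOT1-AID and CNOT4-AID cells, and 9 to 16 for untreated cells over time. For slopes they ran from 19 to 26 for CNOT1-AID and 0 to 45 for CNOT4-AID against parental cells, and 36 to 50 for CNOT1-AID against CNOT4-AID cells.
Replicate numbers gave little sign of pairing the samples: correlations of deviations had a median of 0.000472 over 66 pairs of steady-state groups (-0.221 to 0.201). Of these 66 pairs 8 exceeded 0.1, and CNOT1-AID auxin against untreated at 24 h stood at 0.102. In the triptolide set 0 of 66 exceeded 0.1. With the replicate number as a block, 46 and 45 members were higher in CNOT1-AID cells and 1 and 7 in CNOT4-AID cells at 8 h and 24 h, and the slope counts were 24, 1 and 47.
The depth behind the steady-state TPM is unknown, so no limit from counting can be given for them, and 2 libraries a group limit every test.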
